A study of Mus musculus with 19 samples.

Results

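The HOX genes, the homeobox genes of the 4 mouse HOX clusters, were described in infrarenal aortae of mice of both sexes 7 days after infusion of elastase or saline. Members were all genes whose symbol is Hoxa, Hoxb, Hoxc or Hoxd followed by a paralog number and that had a probe set annotated with no other gene. This gave 33 HOX genes, each with 1 probe set, among 30062 genes compared in all. Hoxa7, Hoxa9, Hoxb4, Hoxd3 and Hoxd4 (5 genes) lay on probe sets annotated with several genes and have no value here.

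Each array (Affymetrix Clariom D, also sold as MTA 1.0) held the RNA of the aorta of 1 C57BL/6J mouse, an inbred strain, operated at the age of 10 weeks. The sham groups, 3 female and 5 male mice, received saline, and the PPE groups, 4 female and 7 male mice, received type I porcine pancreatic elastase at 2.5 U/mL in saline. Both were infused through an aortotomy for 5 min at 120 mmHg between ligatures or clamps, so the sham aortae were also operated and pressurised. The stretch below the left renal artery, as far as the bifurcation, was freed of fat and connective tissue and frozen, and 100 ng of RNA per mouse was labelled without pooling. Elastase digests the elastic fibres of the wall, and aneurysms of the abdominal aorta are often modelled in mice by infusing it. The replicates are therefore separate mice, and their number limits the precision of every value. The 7 female and 12 male arrays form separate cohorts, and sex and cohort cannot be told apart.

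HOX genes encode transcription factors that give cells along the head-to-tail axis their positional identity. Within each cluster the genes lie in the order of their paralog numbers. Low numbers are switched on first and reach furthest forward in the embryo, and high numbers are restricted to the tail end, the limbs and the urogenital tract. HOX proteins bind DNA with TALE homeodomain cofactors of the PBX and MEIS families. Polycomb and Trithorax complexes keep each gene silent or active after the embryonic signals, among them retinoic acid, have ended. Adult vascular smooth muscle cells and fibroblasts keep much of this pattern, so that the HOX genes they transcribe differ between the thoracic and the abdominal aorta.

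In the mm10 (GRCm38) assembly the Hoxa cluster lies at chr6:52155367-52260880, with 11 genes in RefSeq, and the Hoxb cluster at chr11:96194316-96368254, with 10. The Hoxc cluster lies at chr15:102921131-103036856 and the Hoxd cluster at chr2:74668225-74765142, with 9 genes each. Some RefSeq gene models overlap. Hoxa3 spans Hoxa4, Hoxa5 and Hoxa6 (by 2022, 2834 and 3815 bp), and Hoxd10 overlaps Hoxd11 by 2744 bp, so whether the probe sets of these genes read the transcripts separately was not tested.

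The median of the 65956 probe sets ranged from 6.17 to 6.31 in female and from 5.61 to 5.85 in male arrays, on the log2 intensity scale of all levels given here, so levels were not compared between the sexes. The smooth muscle genes that define the tissue were present: Myh11, the smooth muscle myosin heavy chain, averaged 15.87 ± 0.57 (SD, n = 5) in male and 15.42 ± 0.41 (n = 3) in female sham aortae. Some arrays stood apart. Male sham 4 had a mean of 12.62 over 9 adipocyte markers, while the other male sham arrays had 7.69 to 8.65. The mean over 8 skeletal muscle markers was 10.94 in female sham 1, 9.71 in female PPE 2 and 7.42 in male PPE 6, against 5.38 to 6.14 in all others. Female PPE 2 also had a mean of 8.52 over 5 nerve markers, while the other female PPE arrays had 6.40 to 7.17.

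The probe sets of 13 of the 33 HOX genes stood above background in every sham array of both sexes. All lay within paralogs 2 to 10 of the a, b and c clusters, but with gaps, and in the b cluster the highest was paralog 6. Background was taken from 1718 olfactory and vomeronasal receptor genes, chosen by symbol as sensory genes. Whether cells of the aorta transcribe some of them was not tested. A gene counted as above background when it exceeded their 95th percentile in each array. That percentile lay between 6.10 and 6.70 in male sham and between 6.62 and 7.02 in female sham arrays. Over all genes 43.6% passed in males and 46.5% in females. Intensities of different probe sets do not give relative amounts of RNA, so the code is read only as which probe sets passed.

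No gene of paralogs 11 to 13 passed (0 of 9), and the whole Hoxd cluster failed too (0 of 7). At the anterior end, 4 of 8 genes of paralogs 1 to 4 passed, Hoxa2, Hoxa3, Hoxb3 and Hoxc4. Of the 10 central genes, paralogs 5 to 8, 7 passed in males and 6 in females, and of the 6 genes of paralogs 9 and 10, 3 passed in both. The sexes differed in 1 gene: Hoxc5 passed in all 5 male sham arrays and in none of the 3 female ones, which was not tested as a difference.

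**Figure D1:**
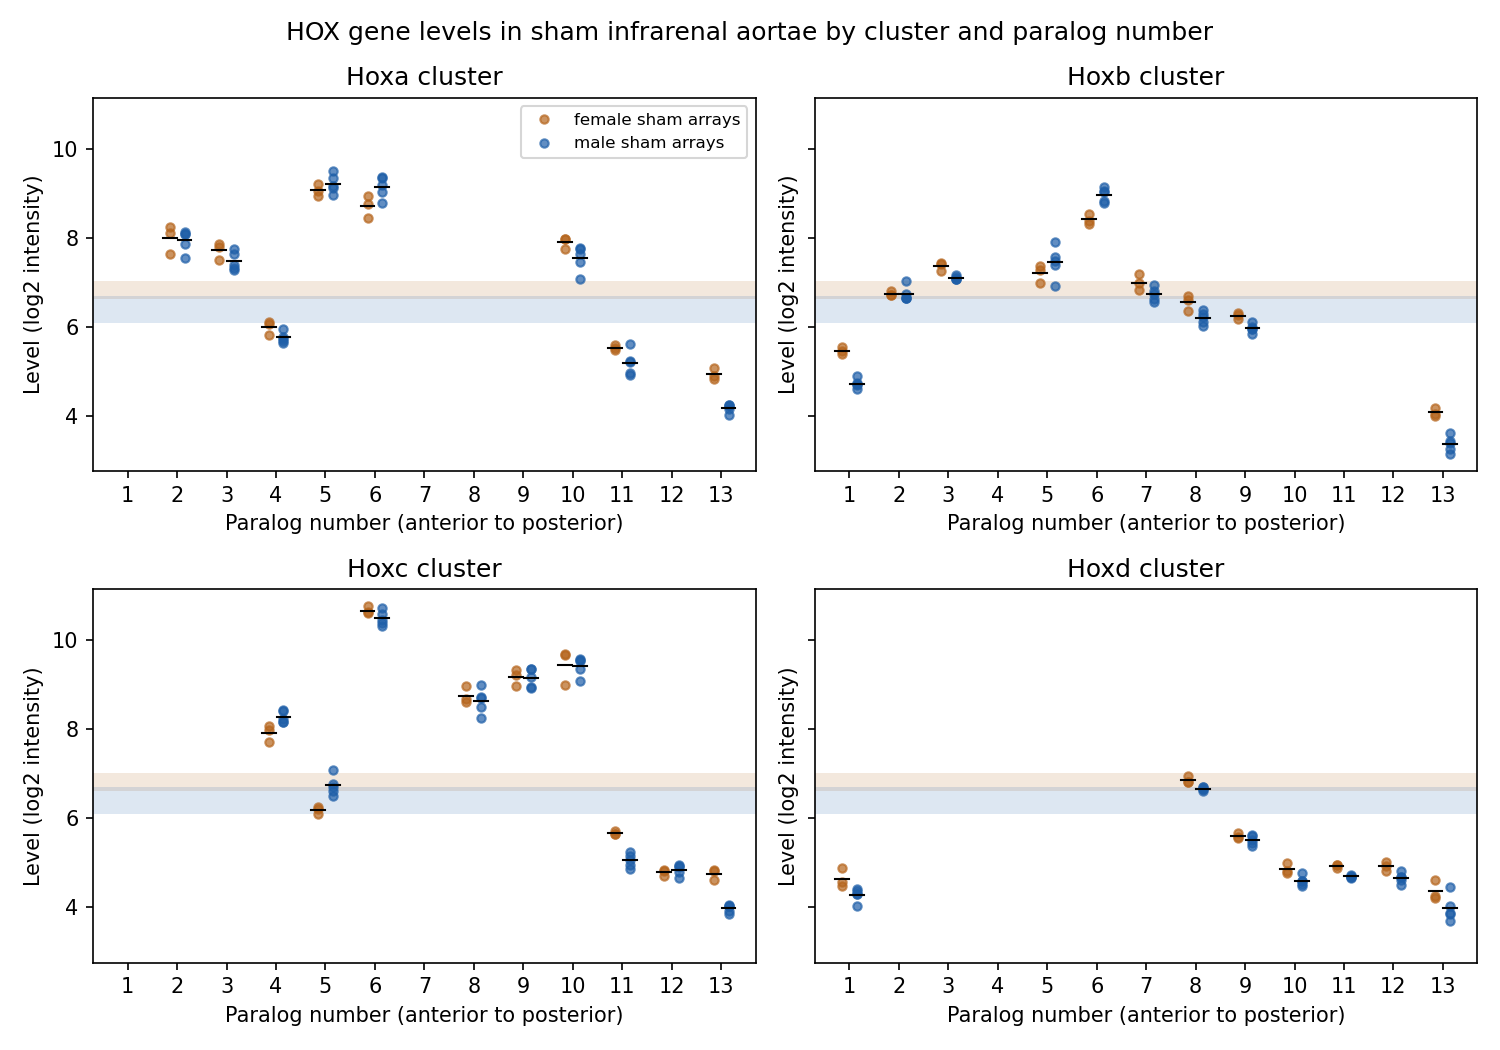
Log2 intensity of each HOX gene (vertical axis) in every sham array against its paralog number (horizontal axis), 1 panel per cluster, with a line at each group mean. Shaded bands give the range over arrays of the 95th percentile of the receptor genes (blue for males, orange for females); only paralogs 2 to 10 of the a, b and c clusters have points above the bands, and paralogs 11 to 13 lie below them in each cluster.

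In the Hoxa cluster the probe sets of Hoxa2, Hoxa3, Hoxa5, Hoxa6 and Hoxa10 passed. Hoxa5 (chr6:52201754-52204587), a patterning gene of lung and cervicothoracic skeleton, read 9.21, 8.94 and 9.06 in the female sham arrays and 9.50, 8.97, 9.35, 9.11 and 9.16 in the male ones. It lay above 99.8% of the receptor genes in each sex. Hoxa4 (chr6:52189682-52191703), between Hoxa3 and Hoxa5 in paralog number, did not pass. At 5.76 ± 0.12 in male and 5.99 ± 0.16 in female sham arrays, it stayed under the 95th percentile in all 19 arrays. The border lay between Hoxa10 (chr6:52231197-52240854), a gene of lumbar vertebrae and uterus, and its neighbour Hoxa11 (chr6:52242105-52245810), a gene of forearm and kidney. Hoxa10 averaged 7.54 ± 0.29 in male sham arrays, above 97.9% of the receptor genes, and Hoxa11 5.19 ± 0.27, above 77.5%. In females the same neighbours stood above 98.5% and 67.9%. Hoxa13, the last gene of the cluster, averaged 4.18 ± 0.09 and 4.94 ± 0.12 in male and female sham arrays.

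In the Hoxb cluster 3 genes passed in both sexes, Hoxb3, Hoxb5 and Hoxb6. Hoxb6 (chr11:96292814-96301569) was the clearest, at 8.96 ± 0.16 in male and 8.41 ± 0.11 in female sham arrays. Of the 3, the nearest to the threshold was Hoxb3 in males (7.10 ± 0.04, above 97.1% of the receptor genes) and Hoxb5 in females (7.21 ± 0.20, above 96.5%). Just outside were Hoxb2, which passed in 4 of 5 male and 1 of 3 female sham arrays, and Hoxb7, which passed in 3 of 5 and 1 of 3. Hoxb8 and Hoxb9 passed in 1 of 5 male sham arrays each and in no female one. The ends of the cluster, Hoxb1, a hindbrain gene, and Hoxb13, a gene of prostate and tail, passed in no array. Hoxb13 lay above 0.058% of the receptor genes in male and 2.50% in female sham arrays, the lowest of all 33.

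The Hoxc cluster had the longest run without a gap in males, Hoxc4 to Hoxc10 (6 of 6 genes with a probe set there). Hoxc6 (chr15:102998226-103011882), a gene of the thoracic level, was above 99.9% of the receptor genes in both sexes. It read 10.62, 10.61 and 10.76 in female and 10.38, 10.31, 10.58, 10.46 and 10.72 in male sham arrays. Hoxc8, Hoxc9 and Hoxc10, genes of the thoracic to lumbar levels, averaged 8.64 ± 0.27, 9.15 ± 0.21 and 9.42 ± 0.21 in male sham arrays. The next gene, Hoxc11, averaged 5.06 ± 0.15 and passed in no array, nor did Hoxc12 (4.85 ± 0.12) or Hoxc13 (3.98 ± 0.09). The border between paralogs 10 and 11 thus fell at the same place in the a and c clusters, in males and in females.

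In the Hoxd cluster, best known for limb and genital development, the nearest to the threshold was Hoxd8 (chr2:74704615-74707933). It averaged 6.66 ± 0.03 in male and 6.86 ± 0.08 in female sham arrays and passed in 4 of 5 and 1 of 3 of them. Hoxd9 averaged 5.51 ± 0.11 and 5.60 ± 0.06. The other members, Hoxd1, Hoxd10, Hoxd11, Hoxd12 and Hoxd13, had group means between 3.98 and 4.93 in the sham groups of both sexes, and none passed in any array. The anterior genes Hoxd3 and Hoxd4 are among those without a probe set of their own.

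The code depended on the strictness of the background. At the 90th percentile of the receptor genes 18 members passed in male and 16 in female sham arrays, which added Hoxb2, Hoxb7 and Hoxd8 in both sexes and Hoxb8 in males. At the 99th percentile 6 and 5 passed, Hoxa5, Hoxa6, Hoxc6, Hoxc9 and Hoxc10 in both sexes and Hoxb6 in males.

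Sequences upstream of transcription starts were read from the RefSeq promoter table (GRCm38.p6), which held windows of 250 bases before to 50 after the start for 17 of the 33 members (19 windows). The bases before the start are shown for both sides of the border in the Hoxa cluster, Hoxa10 (chr6:52240855-52241104, minus strand) and Hoxa11 (chr6:52245811-52246060, minus strand). They are also shown for Hoxa5 (chr6:52204588-52204837, minus strand) and Hoxc4 (chr15:103034145-103034394, plus strand, inside the span of the gene model), paralogs of neighbouring groups whose levels fell with PPE in males. All are printed 5′ to 3′ on the strand of the gene. Capitals mark TTGCCATAATGG, a run of 12 bases found by looking through these letters, on either strand.
Hoxa10: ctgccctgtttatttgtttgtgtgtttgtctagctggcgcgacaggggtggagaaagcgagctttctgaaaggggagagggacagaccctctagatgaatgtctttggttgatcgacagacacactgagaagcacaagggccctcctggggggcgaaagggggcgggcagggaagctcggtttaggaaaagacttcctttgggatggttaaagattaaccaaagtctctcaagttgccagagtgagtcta
Hoxa11: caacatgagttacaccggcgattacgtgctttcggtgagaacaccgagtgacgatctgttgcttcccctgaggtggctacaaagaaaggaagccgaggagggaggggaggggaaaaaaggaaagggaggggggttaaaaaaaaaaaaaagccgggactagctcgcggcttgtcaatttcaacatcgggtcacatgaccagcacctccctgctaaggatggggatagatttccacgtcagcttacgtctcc
Hoxa5: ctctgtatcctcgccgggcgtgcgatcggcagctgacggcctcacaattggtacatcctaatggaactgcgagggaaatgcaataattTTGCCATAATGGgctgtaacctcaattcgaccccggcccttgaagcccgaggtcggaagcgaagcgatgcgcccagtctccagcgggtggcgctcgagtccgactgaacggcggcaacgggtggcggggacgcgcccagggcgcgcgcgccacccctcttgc
Hoxc4: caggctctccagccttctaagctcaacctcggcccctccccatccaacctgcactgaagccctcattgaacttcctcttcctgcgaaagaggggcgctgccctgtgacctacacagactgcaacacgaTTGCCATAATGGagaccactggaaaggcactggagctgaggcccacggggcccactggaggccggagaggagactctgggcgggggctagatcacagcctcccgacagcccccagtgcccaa
Among all 32851 windows of 27025 genes only these windows of Hoxa5 and Hoxc4 held the run (0.00609%). Over the 24 windows of all HOX genes in the table, 27 runs of that length were shared by 2 or more HOX genes, and 2 of these were in no window of another gene. Windows of HOX members had a median GC content of 60.3% and a median of 20 CpG dinucleotides, against 52.7% and 7 over all windows.

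Motifs of known factors were counted on both strands of these windows. TGATTNAT, the site of a HOX and PBX pair, was in the windows of Hoxd11 and Hoxa2 (10.5% of the 19, 3.22% of all). TTTATNG, the caudal site, was in that of Hoxb8 (5.26%, 10.9% of all), and TAATTA, a homeodomain core, in both windows of Hoxd11 (10.5%, 5.29% of all). The CArG box of smooth muscle genes was in no window of a member and in 1.63% of all, and the DR5 repeat bound by retinoic acid receptors (AGGTCA repeated after 5 bases) was in none and in 0.00913% of all. TATAAA was in the windows of Hoxa10, Hoxb8 and Hoxd13 (15.8%, 13.6% of all). A match here is a description of letters, not a site.

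In males, 16 of the 33 HOX genes fell with PPE and none rose, by the limma fit over all genes at a Benjamini-Hochberg adjusted p under 0.05. Among all 30062 genes 19.7% were called, 9.97% lower and 9.69% higher. The falls took in genes of the a, b and c clusters from paralog 2 to paralog 10, with 6 of 8 members of the a, 4 of 9 of the b, 6 of 9 of the c and 0 of 7 of the d cluster. No member of the d cluster was above background in every sham array of either sex. The median log2 difference (PPE minus sham) was -0.15 over the 33 members and 0.01 over all genes. In 10 members every PPE array was below every sham array, which was so for 4.67% of all genes, and in 0 every PPE array was above (4.7% of all genes). Differences were negative in 25 members, and 48.5% of all genes had a lower mean with PPE. In bulk tissue, fewer cells of a type and less RNA per cell cannot be told apart.

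All 13 genes above background in sham arrays of both sexes fell in males, with a median of -0.64. They were picked by the same sham values from which the fall is measured, which favours lower calls. The count is therefore a description and not separate evidence. Of the other 20 members 3 did, Hoxa4, Hoxb9 and Hoxc5. Calls were also commoner among bright genes at large: of the 13102 genes above background in every male sham array, 16.9% were called lower, and of the 16960 others 4.60%. By position, 5 of 8 members of paralogs 1 to 4 fell, 7 of 10 of paralogs 5 to 8, 4 of 6 of paralogs 9 and 10, and 0 of 9 of paralogs 11 to 13. The corresponding medians were -0.28, -0.58, -0.32 and 0.03. Over all genes 9.97% were called lower. None of the 9 genes of paralogs 11 to 13 was above background in every sham array, so position and dim signal cannot be told apart there.

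**Figure D2:**
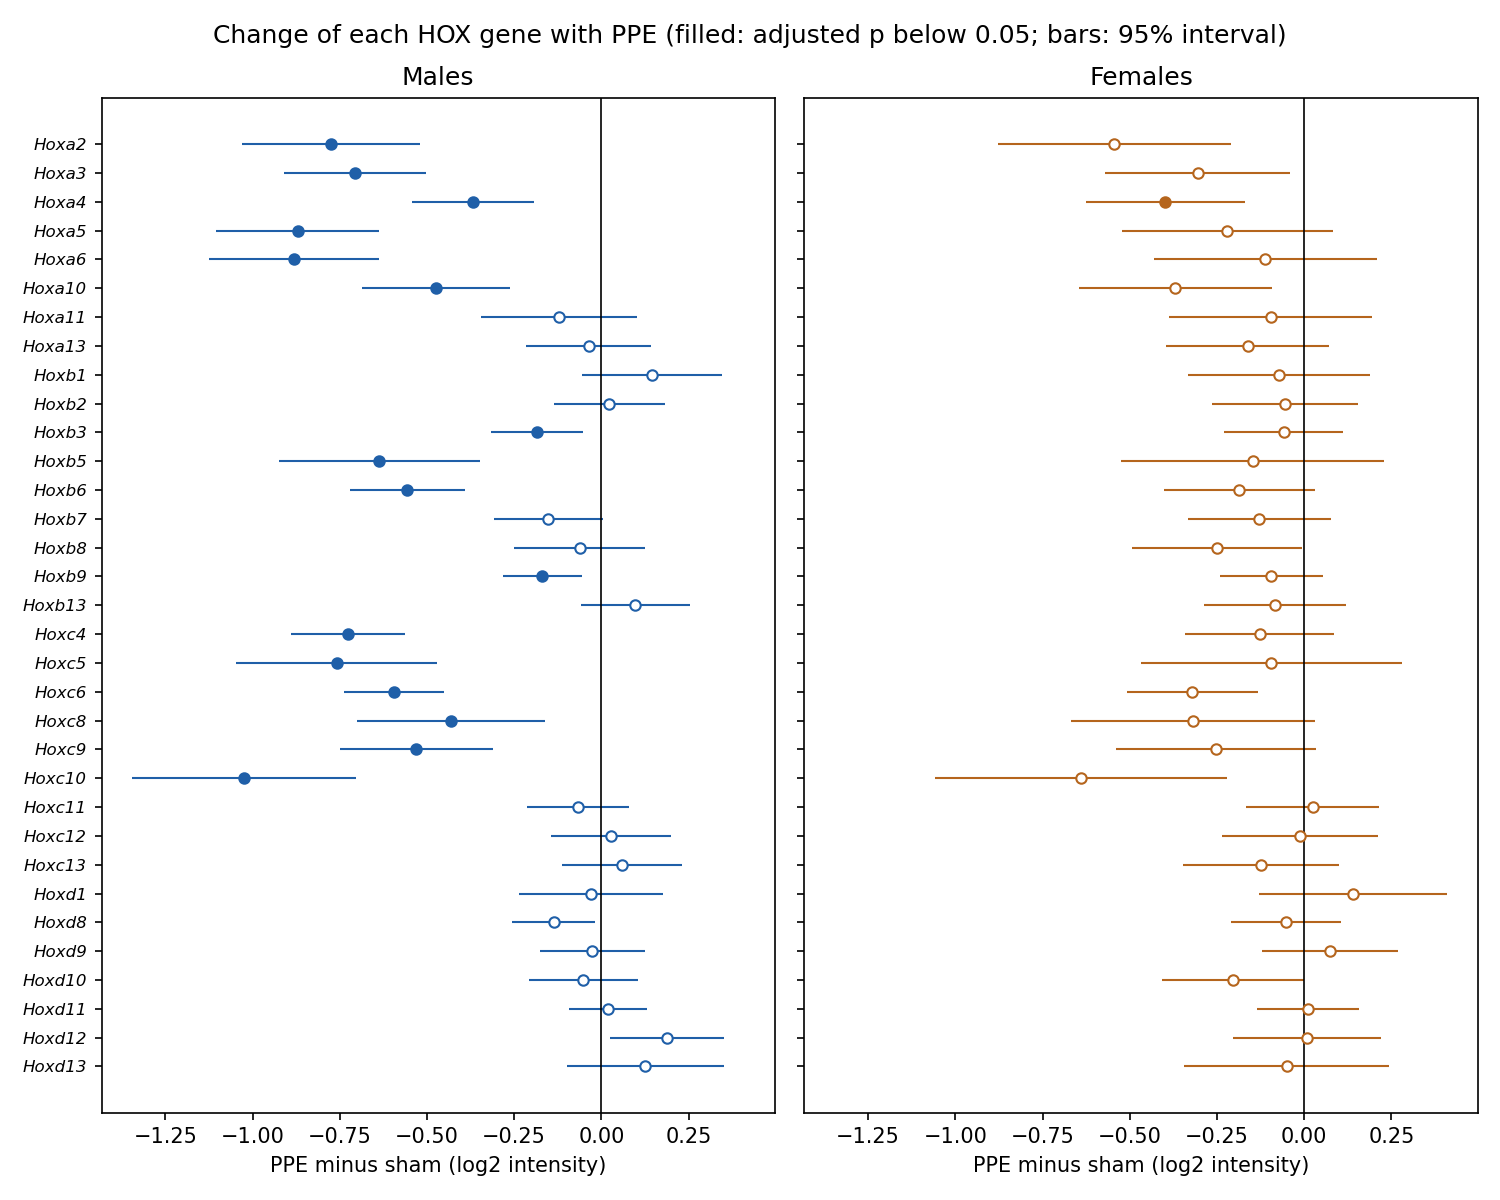
Log2 difference between PPE and sham (horizontal axis) of each of the 33 HOX genes in cluster order (vertical axis), males at left and females at right. Points are the fitted differences, bars their 95% intervals, and filled points passed an adjusted p under 0.05 (16 in males, 1 in females); filled points lie to the left of 0 in both panels.

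Hoxc10 (chr15:102966796-102971898), a gene of the lumbar spinal cord and hind limb, had the largest difference. In male sham arrays it read 9.58, 9.09, 9.35, 9.54 and 9.55, and the 7 male PPE arrays ran from 8.17 to 8.88 with a median of 8.24. No PPE array reached the lowest sham array. The difference was -1.02 (SE 0.15, 95% interval -1.34 to -0.70, limma adjusted p = 8.68e-05), a 2.03-fold fall. Its neighbour Hoxc9 read 9.35, 8.94, 9.35, 8.92 and 9.17 in sham and from 8.32 to 8.94 (median 8.67) in PPE arrays. Here the groups overlapped, since male PPE 3, at 8.94, reached the lower sham arrays, and the difference was -0.53 (SE 0.10, limma adjusted p = 0.00116).

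Among the paralogs numbered 4 to 6, Hoxa6 (chr6:52204858-52208672) read 9.35, 8.79, 9.36, 9.03 and 9.18 in male sham arrays and from 7.99 to 8.55 (median 8.21) in male PPE arrays. It fell by 0.88 (SE 0.12, adjusted p = 2.62e-05). Hoxa5, whose sham values are given above, ran from 8.11 to 8.59 (median 8.33) in PPE arrays and fell by 0.87 (SE 0.11, adjusted p = 1.82e-05). Neither group of PPE arrays overlapped its sham arrays. Hoxc4 (chr15:103018097-103036856), a gene of the neck and upper thorax that is also active in lymphocytes, read 8.42, 8.22, 8.15, 8.16 and 8.40 in sham and from 7.41 to 7.73 (median 7.54) in PPE arrays. Its difference of -0.73 (SE 0.08) had the lowest p of the 33 (adjusted p = 3.81e-06), and its groups stood apart. Hoxc6 ran from 9.80 to 10.06 (median 9.91) in PPE arrays, again below every sham array, and fell by 0.59 (SE 0.07, adjusted p = 7.13e-06). Hoxc5 (chr15:103014008-103017429), near background, read 6.51, 6.61, 6.71, 6.76 and 7.09 in sham and from 5.43 to 6.51 (median 6.01) in PPE arrays. These groups met at 6.51, and the difference was -0.76 (SE 0.14, adjusted p = 0.000513).

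The anterior genes Hoxa2 and Hoxa3, patterning genes of the hindbrain and pharyngeal arches, fell with complete separation of the male groups. Hoxa2 (chr6:52162417-52164831) read 8.09, 8.14, 8.09, 7.55 and 7.87 in sham and from 6.97 to 7.51 (median 7.12) in PPE arrays, a difference of -0.78 (SE 0.12, adjusted p = 0.000141). Hoxa3 (chr6:52169059-52213067) read 7.75, 7.33, 7.63, 7.27 and 7.40 in sham and from 6.55 to 6.95 (median 6.84) in PPE arrays, a difference of -0.71 (SE 0.10, adjusted p = 3.73e-05). In the Hoxb cluster, Hoxb5 (chr11:96303512-96306121) read 7.48, 6.92, 7.39, 7.57 and 7.90 in sham and from 6.47 to 7.01 (median 6.79) in PPE arrays. Male sham 2 was the array inside the PPE range, and the difference was -0.64 (SE 0.14, adjusted p = 0.00247). Hoxb6 read 9.02, 8.78, 9.05, 8.82 and 9.14 in sham and from 8.27 to 8.63 (median 8.39) in PPE arrays, with no overlap and a difference of -0.56 (SE 0.08, adjusted p = 4.9e-05).

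The 5 remaining called members in males had smaller differences. Hoxa10 differed by -0.47 (adjusted p = 0.00216), with male sham 4 at 7.08 inside the PPE range of 6.83 to 7.18. Hoxc8 differed by -0.43 (adjusted p = 0.0222), and without male sham 1, 3 or 4 its call was lost. Hoxa4, under background in every array, differed by -0.37 (adjusted p = 0.00341). Hoxb3 and Hoxb9, at -0.18 and -0.17 (adjusted p = 0.0453 and 0.0324), were near the threshold. The Hoxb9 call was lost without male sham 1 or 3 or male PPE 4 or 7. The Hoxb3 call was kept only when the array left out was female sham 2, female PPE 1 or 2, or male PPE 1 or 2.

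**Figure D3:**
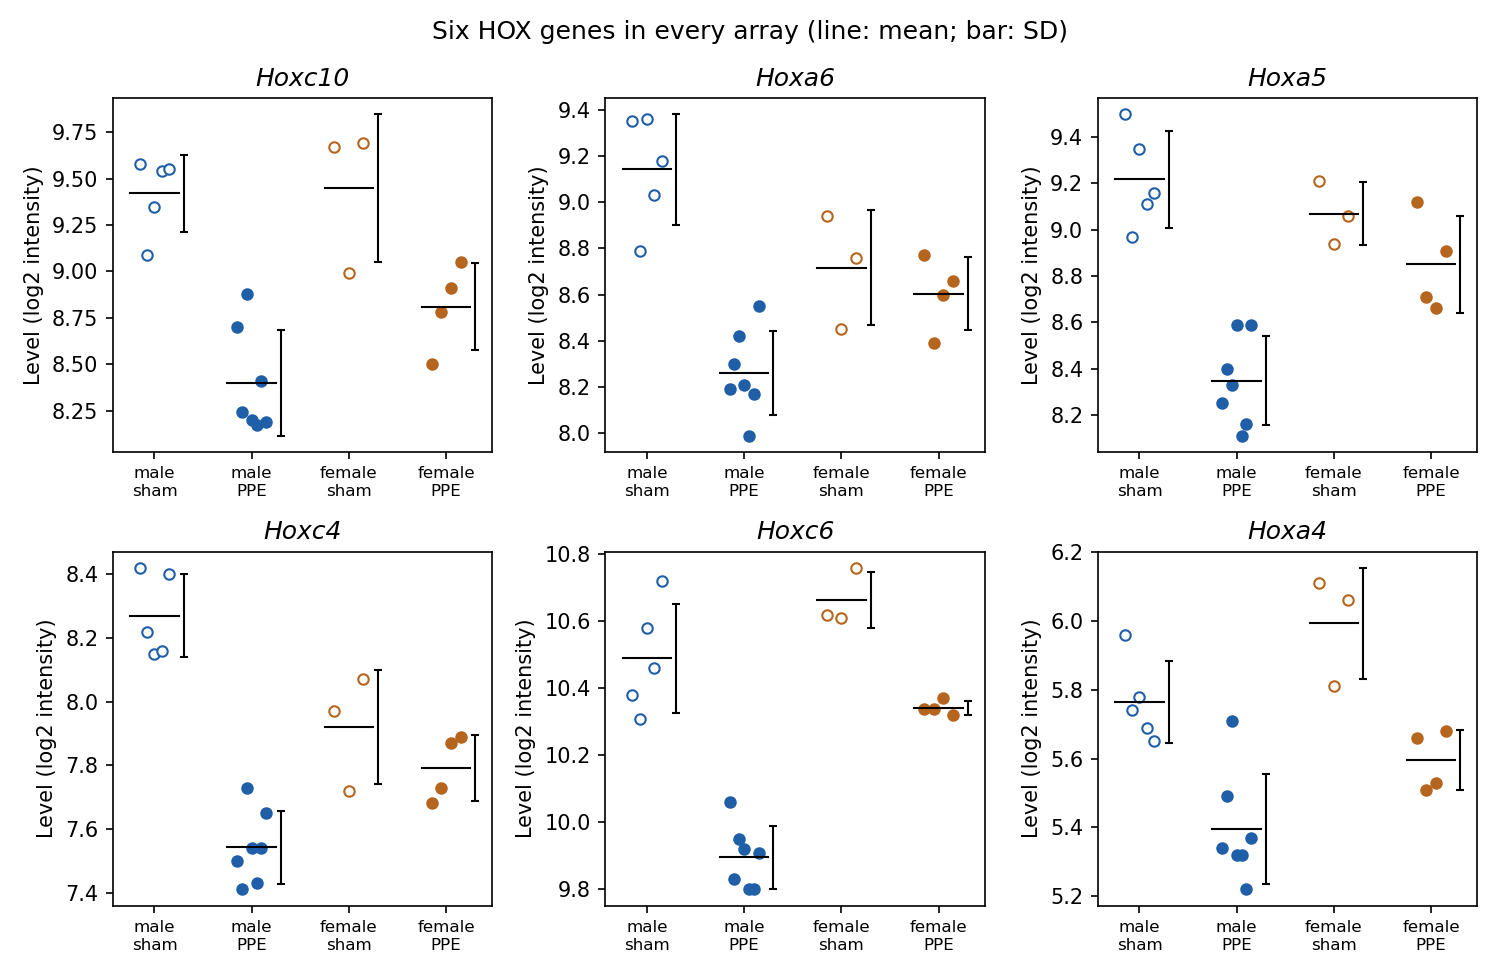
Log2 intensity (vertical axis) of 6 HOX genes in every array, in the 4 groups (horizontal axis), with a line at the group mean and a bar of 1 SD. For Hoxc10, Hoxa6, Hoxa5, Hoxc4 and Hoxc6 the male PPE arrays (filled blue) lie below every male sham array (open blue); for Hoxc4 and Hoxa6 the female groups overlap.

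The 17 members that were not called in males included Hoxb7 (-0.15, 95% interval -0.31 to 0.01) and Hoxd8 (-0.14, -0.26 to -0.02, adjusted p = 0.11). Hoxb2 (0.02, -0.14 to 0.18) and Hoxb8 (-0.06, -0.25 to 0.12) lay next to called genes in the same cluster. The posterior genes Hoxa11 (-0.12, -0.34 to 0.10) and Hoxc11 (-0.07, -0.21 to 0.08) lay below background, where a change of RNA can be hidden, so these intervals bound the probe set's signal and not the RNA. The largest positive difference was that of Hoxd12 (0.19, 0.03 to 0.35, adjusted p = 0.106), also below background.

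The receptor genes used as background shifted in males too. Their median difference was -0.11, and 182 of 1718 (10.6%) were called lower and 6 higher. The upper tail of the receptor genes was brightest in male sham 4 and 5, at 95th percentiles of 6.62 and 6.70. The 99th percentile of the receptor genes lay between 7.15 and 8.56 in male sham and between 6.79 and 7.13 in male PPE arrays. The 5th percentile of their differences was -0.66. Without male sham 4 and 5 and male PPE 1 the receptor median was 0.00 and the 5th percentile -0.51, with 5.88% called lower and 20 genes called higher. The part of this shift in the falls of the HOX genes was not tested. In the fit without those arrays, 16 HOX genes were called lower. In that fit 15 of the original 16 were among the calls. Hoxc10, Hoxa6, Hoxa5 and 10 more kept their calls in all alternatives run, and over those alternatives Hoxc10 ranged from -1.11 to -0.97.

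In females, 1 of 33 HOX genes was called lower and none higher, against 1.46% and 2.79% of all genes (4.25% in either direction). The gene was Hoxa4, at 6.11, 5.81 and 6.06 in sham and 5.66, 5.51, 5.53 and 5.68 in PPE arrays. The groups did not overlap, but all 7 arrays lay below background, and the difference was -0.40 (SE 0.11, limma adjusted p = 0.0439). That call was kept only when the array left out was female PPE 4, male sham 1, 4 or 5, or male PPE 1, 3 or 6. Without female sham 1 and female PPE 2, the arrays with raised skeletal muscle markers, no member was called. Differences were negative in 28 of the 33 members, while 55.4% of all genes had a lower mean with PPE. The median was -0.12 over the members and -0.02 over all genes, and 7 members had an unadjusted p under 0.05. In 5 members every PPE array was below every sham array (8.87% of all genes).

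The members with the next lowest p in females had intervals below 0 but missed the threshold. Hoxc6 read 10.34, 10.34, 10.37 and 10.32 in female PPE arrays, below every sham array, a difference of -0.32 (95% interval -0.51 to -0.13, adjusted p = 0.0505). Hoxa2 read 8.25, 7.64 and 8.11 in sham and 7.48, 7.41, 7.57 and 7.36 in PPE arrays, again apart, a difference of -0.55 (-0.88 to -0.21, adjusted p = 0.0626). Hoxc10, the gene that differed most in each sex, read 9.67, 8.99 and 9.69 in sham and 8.50, 8.78, 8.91 and 9.05 in PPE arrays. Its difference was -0.64 (-1.06 to -0.22, adjusted p = 0.0862), and only female sham 2 lay within the PPE range. Hoxa10 differed by -0.37 (-0.65 to -0.09, adjusted p = 0.143) with no overlap of the arrays.

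The differences between PPE and sham of the 33 members in males and in females correlated at r = 0.65 (Spearman rho 0.65), which describes these genes and not replicates. They had the same sign in 24. The response of males minus that of females was tested as an interaction in the limma fit. It was called in 1 member, Hoxc4, at -0.60 (SE 0.13, adjusted p = 0.0428), against 0.502% of all genes with a lower response in males (0.542% in either direction). In females Hoxc4 read 7.97, 7.72 and 8.07 in sham and 7.68, 7.73, 7.87 and 7.89 in PPE arrays, which overlapped, and differed by -0.13 (SE 0.10). The call was lost without female sham 1 or 2, any female PPE array, male sham 1 or 5, or male PPE 1, 2, 4 or 5, and when the values were quantile-normalized or centred. The next were Hoxa6 at -0.77 (95% interval -1.17 to -0.37, adjusted p = 0.0806) and Hoxa5 at -0.65 (-1.03 to -0.27, adjusted p = 0.128). For the others the data do not show that the sexes differ, nor that they respond alike: the interaction of Hoxc10 was -0.38 with a standard error of 0.25.

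The cofactors of HOX proteins were represented by 10 TALE homeobox genes. In males 3 fell, all of the MEIS family, and 1 rose (30.0% and 10.0%), with a list median of -0.03. Over all genes 9.97% were called lower and 9.69% higher, so the share that rose was near that of all genes. Of the genes above background in every male sham array, among them Meis1 and Meis2 but not Meis3, 16.9% were called lower. Meis1 averaged 10.30 ± 0.34 in sham and 9.47 ± 0.19 in PPE arrays, a difference of -0.82 (SE 0.14, adjusted p = 0.000247). Meis2 fell by 0.58 (SE 0.11, adjusted p = 0.000629) and Meis3 by 0.26 (SE 0.06, adjusted p = 0.0061). Tgif1, a TALE repressor of TGF-beta and retinoid signalling, rose by 0.47 (SE 0.13, adjusted p = 0.0107). Pbx2, a partner of HOX proteins, was not among the called genes. In females none of the 10 was called, and Meis1 had a difference of -0.56 (SE 0.18, adjusted p = 0.0987). Meis3 and Tgif1 were named after their values were seen, as were the called genes of the next lists beyond 2 per list.

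Among regulators of HOX expression, 4 of 15 Polycomb genes rose in males and none fell, 26.7% against 9.69% of all genes called higher. The other 11 were not called, and the list median was -0.03, so the list as a whole did not rise. Most of the 15 were above background in every array, and bright genes were called more often. In the fit of only the genes above background in at least 3 arrays, 2972 of 17022 were called higher in males. Jarid2, a DNA-binding partner of Polycomb repressive complex 2, rose by 0.82 (adjusted p = 4e-05), and the core subunits Eed, Suz12 and Ezh2 rose by 0.68, 0.36 and 0.32 (adjusted p = 0.000126, 0.00937 and 0.0135). In females Jarid2 alone was called, at 0.79 (adjusted p = 0.00625). Of 10 Trithorax and H3K27 demethylase genes, Kmt2c differed by -0.16 and Rbbp5 and Wdr5 by 0.24 and 0.15 in males (limma adjusted p = 0.0328, 0.0352 and 0.0383). That is 30.0% called against 19.7% of all genes. All 10 were above background in every array. When only genes above background in at least 3 arrays were fitted, 5754 of 17022 were called in males, so 30.0% is no excess. The Kmt2c call was lost without male sham 1, 4 or 5 or male PPE 4 or 6. The Rbbp5 call was lost without male sham 1, 3, 4 or 5 or male PPE 2, 3, 4, 5 or 7, and that of Wdr5 without male sham 1, 2 or 4 or male PPE 1, 2, 3, 4 or 5. None of the 10 was called in females.

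Of 16 retinoic acid genes 2 fell and 1 rose in males, and none was called in females. That share, 18.8%, was near the 19.7% of all genes called in males. The receptor Rarg fell by 0.40 (adjusted p = 0.00242) and the retinal dehydrogenase Aldh1a1 by 0.97 (adjusted p = 0.0132), while Aldh1a2, another retinal dehydrogenase, rose by 1.35 (SE 0.32, adjusted p = 0.00504). The Aldh1a1 call was lost without male sham 1. The 8 genes of the list of caudal, ParaHox and Evx genes had no call in either sex. Among 26 other regional homeobox and T-box genes 3 fell in males (11.5%, near the 9.97% of all genes called lower) and none in females. These were Tbx18, a gene of the mesenchyme that forms mural cells of heart and ureter, by 0.82 (adjusted p = 1.8e-05), Meox2, a homeobox gene of vascular and muscle cells, by 0.66 (adjusted p = 0.0118), and Tbx2 by 0.32 (adjusted p = 0.00487). The median of that list was -0.01 in males.

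The HOX clusters also hold non-coding RNA genes, of which 6 of 17 listed were found under their own symbol among the genes compared and 7 more under older names of their probe sets. The 2 microRNAs below are shown since miR-196a is known to target HOX messages and miR-10b lies among the HOX genes of the d cluster. They are mature sequences from RefSeq (GRCm38.p6), 5′ to 3′, with the seed (bases 2 to 8) in capitals. The seeds differ.
mmu-miR-196a-5p: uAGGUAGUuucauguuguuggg
mmu-miR-10b-5p: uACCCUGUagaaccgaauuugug
The array reads the RNA of the precursor gene, not only the mature form. Mir196a-2, between Hoxc9 and Hoxc10 (mature form at chr15:102973365-102973386), was above background in all 19 arrays. It averaged 7.23 ± 0.26 in male sham and 7.02 ± 0.44 in male PPE arrays, a difference of -0.21 (SE 0.19, adjusted p = 0.542). In females it differed by -0.32 (SE 0.25). Mir196a-1, which gives the same mature sequence from the Hoxb cluster, Mir10b and Hotair, a non-coding RNA of the Hoxc cluster, were under background in every array. None of the 6 was called in either sex, and their median was -0.14 in males and -0.22 in females. The 7 others, Haglr, Hotairm1, Hottip, Hoxa11os, Hoxaas2, Hoxaas3 and Hoxb5os, were taken from a fit over all 65956 probe sets, and none was called in either sex. Their medians were -0.04 in males and -0.11 in females, and over all 13 the medians were -0.07 and -0.18. Of these 7, Hoxaas2, an antisense RNA of the Hoxa cluster, differed most, by -0.19 in males and -0.30 in females (limma adjusted p = 0.181 and 0.232). Hoxb5os differed by 0.02 and 0.08. Mir615, one of the other 6, averaged 5.83 in male sham and 5.39 in male PPE arrays, under background in all of them.

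Markers of several cell types moved with PPE alongside the HOX genes. In males, where 9.97% of all genes were called lower and 9.69% higher, 11 of 12 smooth muscle markers fell (list median -1.91) and none rose. The mean of that list lay between 12.06 and 13.08 in male sham and between 10.31 and 11.38 in male PPE arrays. Of 8 resident fibroblast markers 5 fell (median -0.59), of 7 pericyte markers 6 (-1.08) and of 10 endothelial markers 5 (-0.49). Blood cell markers rose: 10 of 12 for monocytes and macrophages (median 1.48), 6 of 8 for neutrophils (1.77) and 10 of 10 for T and NK cells (1.74). No marker of B cells, adipocytes, mesothelium, nerve, skeletal muscle or kidney was called in males. The part of these shifts in the fall of the HOX genes was not tested.

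In females 8 of 12 smooth muscle markers fell (median -1.26), with list means of 12.52 to 12.88 in sham and 11.21 to 11.85 in PPE arrays. There 2 of 8 fibroblast and 4 of 7 pericyte markers fell, 1 of 12 monocyte and macrophage, 4 of 8 neutrophil and 9 of 10 T and NK cell markers rose, and 2 of 5 B cell markers rose. None of 10 endothelial markers was called in females (median -0.05). None of 9 adipocyte markers was called either, but their median was -0.84. Their list means were 10.81 to 11.68 in female sham and 9.24 to 11.12 in female PPE arrays. Calls over all genes numbered 5910 in males and 1277 in females, where 1.46% of all genes were called lower and 2.79% higher. The part of the marker shifts in the female HOX values was not tested either.

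**Figure D4:**
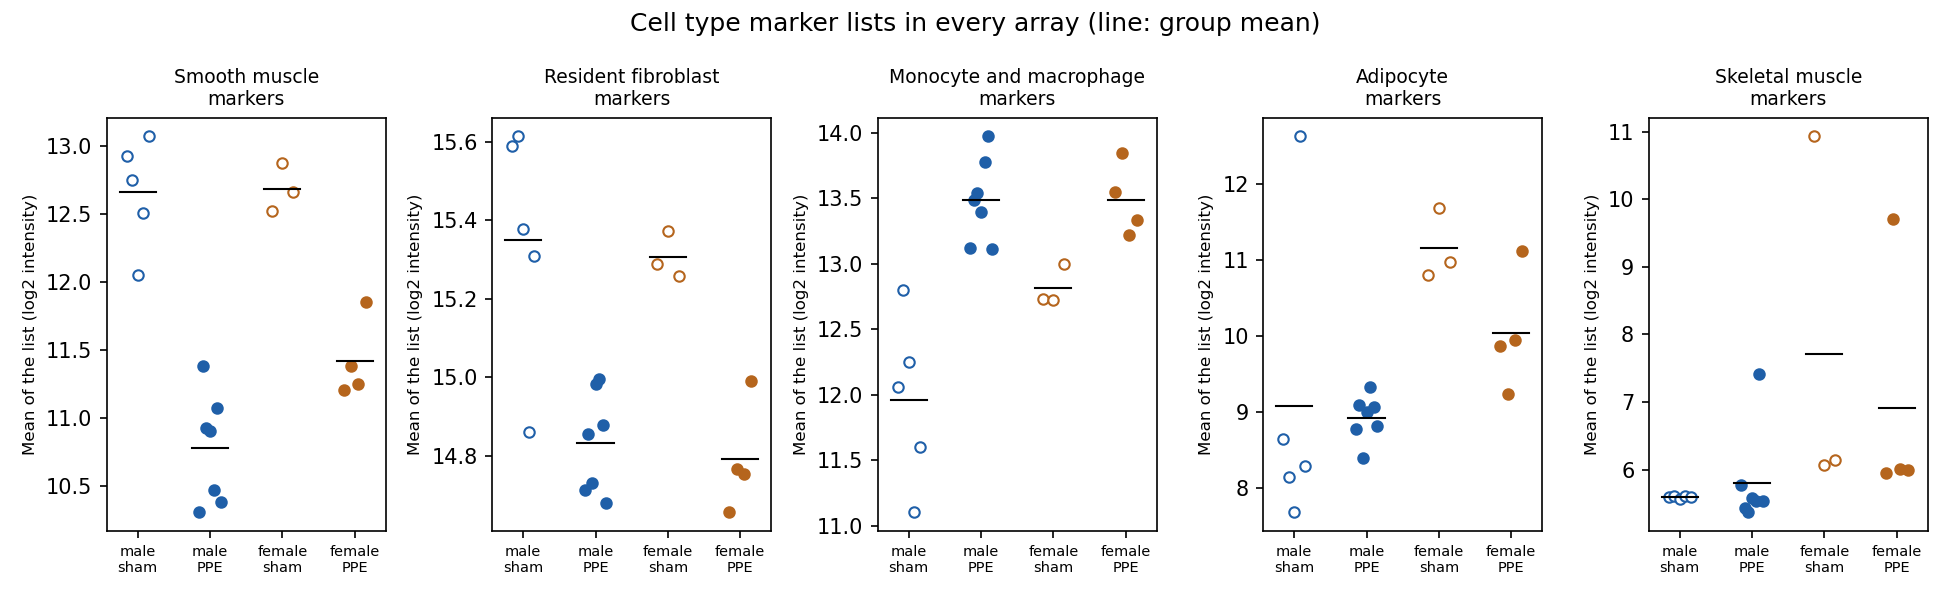
Mean log2 intensity over each marker list (vertical axes) in every array, by group (horizontal axes), with a line at the group mean; 5 of the lists are shown. Smooth muscle values are lower in every PPE array than in every sham array of the same sex, and single arrays stand out in the adipocyte list (male sham 4) and the skeletal muscle list (female sham 1, female PPE 2 and male PPE 6).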

How the data were processed

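Gene expression was measured on 19 arrays, 1 mouse each. The deposited values are log2 intensities per probe set with 2 decimals, deposited as they came from the authors' Transcriptome Analysis Console with mm10, per the submitters' processing notes. How probes were summarised and background was corrected is not given in the sources used here, and no detection p was used. Of 65956 probe sets, 30604 carried 1 gene symbol, 2146 several, and 33206 had no gene in the platform annotation. Symbols were updated for 1121 of them through RefSeq (GRCm38.p6), and the brightest probe set per gene left 30062 genes. No 2 arrays were copies, since they shared at most 2.50% of their values.

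A model of the 4 group means was fitted to the 19 arrays together (limma 3.58.1, lmFit and eBayes, in R 4.3.3), without a block, further normalization or filter. The contrasts were PPE minus sham in each sex and their difference, two-sided, with Benjamini-Hochberg adjustment over 30062 genes and a threshold of 0.05. Every member was given. The 10 largest called changes per sex and direction were given with the value of each sham array. In males the PPE arrays were given as a range and a median. Hoxc9, beyond those 10, was given in the same way. Up to 5 members of lowest p could be named for a sex without calls. Females had 1 call, so Hoxc6, Hoxa2, Hoxc10 and Hoxa10 were named there by their p outside that rule. The first 2 members and the 2 of lowest p in males could be named per gene list. The members and lists were chosen with earlier results of these data known. Lists were described by counts and medians. The alternatives tried were array weights, quantile normalization, centring on array medians, leaving out dim genes, means over probe sets, a trended robust prior, 1 sex at a time, a replicate block, other background percentiles and arrays left out. The fit was tested on simulated data.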

Additional observations from a re-analysis of the deposited data

Results flagged for a closer look

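Of 99 sets of values (a member in a group of 4 to 7 arrays), 8 held an array far from the others by Dixon's test, which chance gives in about 1 in 20 groups. Of these, 5 were in the male PPE group, 2 in the male sham group and 1 in the female PPE group. Male PPE 1 gave 3 of them. It read 7.88 for Hoxc8 (others 8.19 to 8.42), 6.52 for Hoxb8 (others 6.00 to 6.16) and 5.13 for Hoxd12 (others 4.74 to 4.85). Male sham 3 read 7.03 for Hoxb2 (others 6.65 to 6.75) and 4.02 for Hoxd1 (others 4.31 to 4.41). Male PPE 4 read 5.71 for Hoxb9 (others 5.80 to 5.84), and male PPE 6 read 4.23 for Hoxd10 (others 4.51 to 4.67). Female PPE 4 read 5.44 for Hoxb1 (others 5.38 to 5.39). Among these genes only Hoxc8 and Hoxb9 were called in males. The response of Hoxc4 differed between males and females, by -0.60 (limma, adjusted p = 0.0428).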

How the results depend on the processing

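No called value changed direction under the alternatives run. In males 13 to 17 members were called over them, with 13 to 16 when 1 array was left out, and 13 of the 16 called genes were called under each alternative that tested them. Hoxb3 lost its call in 21 of 30 alternatives, Hoxb9 in 9 of 29 and Hoxc8 in 5 of 30. Hoxd12 was called higher with quantile normalization and with centring, and Hoxd13 with array weights and without male sham 4 and 5 and male PPE 1.

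The count of 1 in females moved: 4 with quantile normalization, 0 with centring, 2 with the filter on dim genes, 5 with array weights, 3 with female arrays alone, 4 without male sham 4 and 5 and male PPE 1, and 0 to 4 with 1 array left out (4 without male sham 4). In 2 alternatives chosen after seeing the data, the count was 0 without female sham 1 and female PPE 2 and 0 over every probe set. The 1 call of a difference between males and females became 0 with quantile normalization, 0 with centring, 3 with array weights, 0 without the 3 male arrays, 0 without female sham 1 and female PPE 2, and 0 to 2 with 1 array left out. Above background, 6 members in males and 5 in females passed at the 99th percentile, and 14 to 16 and 13 passed at the 95th with 1 sham array left out.

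Replicate numbers did not pair the arrays: deviations of same-numbered arrays correlated between -0.32 and 0.20 in males and between -0.22 and 0.24 in females. With the replicate block 13 members were called in males, 0 in females and 0 for the difference. Fits on 1 sex cannot give that difference. The cause of these changes was not tested. A probe set near background gives little of a change in RNA.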
